A study of Caenorhabditis elegans with 24 samples.

Results

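The response of the Caenorhabditis elegans intestine to the first 12 h of RNA polymerase I (Pol I) depletion was described within the degron strain. The samples were chosen by their labels alone, as all Pol I-AID libraries at 12 h and at 0 h of auxin, and these are 8 of the 24 libraries of the series, 4 at each time. Pol I-AID animals carry qzIs15, in which a degron and GFP were inserted by genome editing at the start of the endogenous gene for the Pol I subunit RPOA-2, together with ieSi57, which expresses the plant F-box protein TIR1 fused to mRuby. Replicate 1 at both times came from strain DCW180, outcrossed 1 time, and replicates 2 to 4 from strain DCW447, outcrossed 3 times. Animals were grown on OP50 bacteria at 20 °C for 72 h to day 1 of adulthood. Those of the 12 h group were then moved to seeded plates with 1 mM auxin, while those of the 0 h group were taken before auxin. TIR1 animals (DCW143 for replicate 1, DCW448 for replicates 2 to 4) carry ieSi57 without the degron, with unc-119(ed3) in their label, and gave 4 libraries at 12 h and 4 at 0 h for reference. Each library was made from a pool of dissected intestines, and the labels call the replicates biologically independent. The eft-3 promoter that drives TIR1 is active in most somatic tissues, so the design does not limit the depletion to the intestine. Between 12 h and 0 h, loss of Pol I, exposure to auxin and its ethanol vehicle, the transfer and 12 h of age cannot be told apart within Pol I-AID. The TIR1 animals shared all of these except the degron.

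Pol I transcribes the precursor of the large ribosomal RNAs in the nucleolus, and its activity sets how many ribosomes a cell can make. In the auxin-inducible degron system, TIR1 joins a ubiquitin ligase that marks degron-tagged proteins for the proteasome once auxin is present. The worm intestine is the main organ of digestion, yolk production, fat storage, detoxification and innate immunity, and it secretes large amounts of yolk proteins, proteases and lysozymes through the endoplasmic reticulum (ER). The libraries were made from polyadenylated RNA, so the ribosomal RNA itself was not measured.

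The deposited counts summed to 17.1 to 25 M per library at 12 h (M, 1000000), against 18.8 to 29.5 M at 0 h, and 8501 to 9255 genes had a count at 12 h, against 8677 to 9710 genes at 0 h. The 6 vitellogenin genes, which encode yolk proteins, took 74.3 to 77.5% of all counts at 12 h, against 69.4 to 72.9% at 0 h. Without them, the 17 other markers of a fixed intestine list held 77539 to 84117 parts per 1000000 of the remaining counts (ppm) at 12 h, against 83985 to 95155 ppm at 0 h, none of them at 0 in either group. The 37 markers of germline and oocyte held 93.2 to 124 ppm at 12 h, and 100.4 to 136 ppm in 3 of the 0 h libraries. Pol I-AID 0 h replicate 4 stood apart with 1205 ppm of these transcripts, and it also had the most body wall muscle transcripts, 241 ppm, against 106 to 121 ppm over the 12 h libraries and 109.8 to 129 ppm in the other 0 h libraries. Sperm markers stood at 96.8 to 129 ppm at 12 h, against 92.1 to 114 ppm at 0 h, and neuronal markers at 111 to 143 ppm, against 80.3 to 126 ppm. Somatic gonad markers held 256 to 268 ppm at 12 h, against 179.7 to 215 ppm at 0 h, without overlap. Of the sperm list 63 of 87 members were at 0 in each group. Hypodermal and cuticle markers ranged from 83.7 to 179 ppm at 12 h, against 93.5 to 396 ppm at 0 h, with 0 h replicate 1 the highest. Pharynx markers (1.69 to 6.70 ppm at 12 h, against 0.611 to 4.95 ppm at 0 h) and coelomocyte markers (5.61 to 11.3 ppm, against 1.97 to 5.45 ppm) were low, with 50 of the 59 pharynx markers at 0 in each group. The part of these other cells in the results below was not tested, except where a value without a library is given.

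Levels below are CPM, counts per 1000000, after trimmed-mean scaling. A gene was called where edgeR's quasi-likelihood test, adjusted over all 6903 genes tested, gave a false discovery rate (FDR) under 0.05 and its level differed 2-fold or more. In bulk tissue, fewer cells of a type and less RNA per cell cannot be told apart, and all levels are relative to the other transcripts of the library.

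The transcript of rpoa-2 had 1.09, 1.63, 1.39 and 1.20 CPM in the 12 h libraries, against 1.32, 0.359, 0.827 and 0.904 CPM in the 0 h libraries. The groups overlapped, and the log2 fold change of 0.65 ± 0.55 (SE, n = 4 per group) was not called (edgeR FDR = 0.559). The degron acts on the protein, so this transcript does not check the depletion. By contrast tif-1A, the homologue of the Pol I initiation factor TIF-IA, had 33.4, 14.9, 23.3 and 12.3 CPM at 12 h, against 5.4, 2.82, 4.53 and 5.02 CPM at 0 h. Every 12 h library lay above every 0 h library, and tif-1A rose by a log2 fold change of 2.24 ± 0.35 (FDR = 4.43e-05). Of the 5 tested members of the Pol I list, tif-1A was the 1 called (20.0%, against 8.13% of all genes tested). The list median was 0.65 on the log2 scale against -0.01 over all genes tested. None of the 7 Pol II and 2 Pol III genes tested was called. The Pol II gene ama-1 passed the FDR but not the 2-fold threshold (0.86 ± 0.19, edgeR FDR = 0.00168), and its groups overlapped. Without Pol I-AID 0 h replicate 1, 1 Pol II gene was called higher.

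Over 12 h of auxin, 394 genes rose and 167 fell in Pol I-AID intestine, so that 8.13% of all genes tested were called, 5.71% as higher and 2.42% as lower. The rises were also larger, with a median log2 fold change of 1.89 among genes called higher and -1.49 among genes called lower, and 174 genes rose at least 4-fold while 51 fell at least 4-fold. The 12 h and 0 h libraries did not overlap for 367 of the 394 and for 136 of the 167, where 19.3% of all genes tested did not overlap. The calls came from these same libraries, so lack of overlap describes called genes and gives no separate support. The same holds for single called genes below. Among genes averaging at least 10 CPM over the 8 libraries, 137 rose and 60 fell. Without Pol I-AID 0 h replicate 4, 375 genes were called higher and 146 lower, and these included 344 of the 394 and 124 of the 167. Within the replicates of the strain outcrossed 3 times, 311 genes rose and 152 fell. A filter of at least 10 counts in each of the 24 libraries left 178 called higher and 76 called lower.

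**Figure D1:**
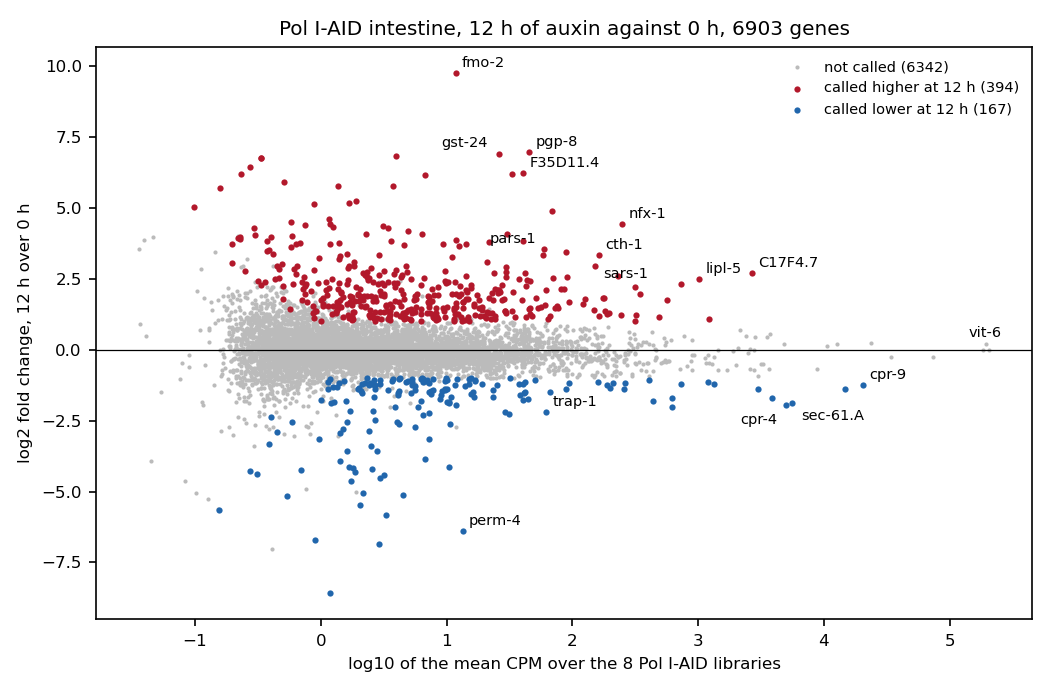
Log2 fold change (12 h over 0 h) against the log10 mean CPM of the 8 Pol I-AID libraries, 1 point per gene for 6903 genes, red called higher (394), blue called lower (167) and grey not called. Among genes averaging at least 10 CPM the rises reach 9.76 (fmo-2) and the falls -6.40 (perm-4), and the blue points with the highest CPM are cathepsin B-like proteases and the translocon gene sec-61.A.

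The largest rises among genes of at least 10 CPM included transcripts that were close to absent before auxin. Flavin monooxygenase fmo-2 had 26.3, 18.9, 20.8 and 28.4 CPM at 12 h, and its 0 h libraries held 2 counts in all, both in replicate 3. From the summed counts, fmo-2 was 1139-fold higher at 12 h (95% exact counting interval 315 to 9414). Most low counts were even, as counting both mates of a pair would give, and the 2 counts would then be 1 fragment and the interval too narrow. The gene rose in TIR1 intestine too, with a mean of 35.6 ± 30.7 CPM at 12 h against 0.252 CPM at 0 h (log2 fold change 8.82, edgeR FDR = 1.57e-05).

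The P-glycoprotein gene pgp-8, an ABC transporter, had 143, 75.5, 89.6 and 53.5 CPM at 12 h, against 0.115, 0.538, 0 and 2.26 CPM at 0 h. The glutathione S-transferase gst-24 had 54.2, 32, 66.2 and 55.1 CPM at 12 h, against 0.574, 0.269, 0.490 and 0.362 CPM at 0 h. Both sets of libraries were far apart, with log2 fold changes of 6.98 ± 0.71 for pgp-8 (edgeR FDR = 1.12e-07) and 6.92 ± 0.70 for gst-24 (FDR = 1.17e-07). Reads of near-identical paralogues can be lost or misplaced in families such as these, although the authors kept uniquely mapped reads.

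Genes with no role given here rose as far. F35D11.4 had 74.0, 47.3, 87 and 113 CPM at 12 h, against 1.26, 0.493, 1.44 and 0.995 CPM at 0 h (log2 fold change 6.24 ± 0.40, edgeR FDR = 1.46e-10). F08G2.5 had 73.7, 48.8, 71.8 and 67 CPM at 12 h, against 1.15, 1.08, 0.429 and 0.995 CPM at 0 h (6.20 ± 0.54, FDR = 2.42e-08). Neither gene overlapped between the times. For drd-50 the 12 h levels of 113 to 150.5 CPM stood against 3.57 to 5.56 CPM at 0 h, and F35E12.9 averaged 26.5 CPM at 12 h and 2.0 CPM at 0 h. The zinc finger gene nfx-1 reached 355 to 728 CPM at 12 h, against 9.15 to 45.4 CPM at 0 h (4.43 ± 0.77, FDR = 0.000143), and grp-1, which encodes a homologue of an Arf exchange factor, rose by 4.08 ± 0.58 (FDR = 1.22e-05). Among the called genes with the highest CPM was C17F4.7, with 1893, 2902, 4627 and 9179 CPM at 12 h, against 889.7, 239, 1114 and 650.2 CPM at 0 h. Y51F10.7 averaged 1658 CPM at 12 h and 784 CPM at 0 h, its groups overlapped, and its call was lost without Pol I-AID 12 h replicate 4 or without 0 h replicate 2 or 4.

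Among genes of translation, several that charge tRNAs rose, while no ribosomal protein gene was called. Of 31 aminoacyl-tRNA synthetase genes tested, which join amino acids to their tRNAs, 9 rose, none fell and 22 were not called. That is 29% of the list, where 8.13% of all genes were called, and the list median log2 fold change was 0.25. The prolyl-tRNA synthetase pars-1 had 203, 61.3, 105 and 65.8 CPM at 12 h, against 10.9, 8.56, 7.23 and 10.7 CPM at 0 h. The seryl-tRNA synthetase sars-1 had 410.3, 200, 270.2 and 187 CPM at 12 h, against 52.8, 23.3, 23.5 and 36.4 CPM at 0 h. Both were clear of their 0 h levels in every library, with log2 fold changes of 3.55 ± 0.42 for pars-1 (edgeR FDR = 9.55e-07) and 2.97 ± 0.40 for sars-1 (FDR = 5.55e-06). The asparaginyl enzyme nars-1 rose by 2.19 ± 0.26 and the alanyl enzyme aars-2 by 2.02 ± 0.29. The other called members, named after their values were seen, were iars-1 (1.82), tars-1 (1.55), gars-1 (1.25), dars-1 (1.22) and lars-1 (1.19), which charge the tRNAs of isoleucine, threonine, glycine, aspartate and leucine. In replicate 1 at 12 h, the DCW180 library, pars-1, sars-1, nars-1 and aars-2 were all at their highest level. So were genes outside this list, such as nfx-1, pgp-8, tif-1A, znf-598 and skn-1. Of other large rises, gst-24 was highest in replicate 3 and F35D11.4 in replicate 4. Between 8 and 10 of the list were called when any replicate or library was left out, and lars-1 lost its call without Pol I-AID 12 h replicate 1.

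Beside the synthetases, mbf-1 and znf-598 rose, whose homologues act at stalled ribosomes in human cells. mbf-1, a multiprotein bridging factor gene, had 143, 54.9, 138 and 92.1 CPM at 12 h, against 18, 6.14, 11.3 and 7.24 CPM at 0 h (log2 fold change 3.33 ± 0.52, edgeR FDR = 4.24e-05). The ubiquitin ligase gene znf-598 had 122, 50, 77.5 and 51.4 CPM at 12 h, against 6.03, 4.30, 5.36 and 5.56 CPM at 0 h (3.82 ± 0.42, FDR = 4.09e-07). Neither gene overlapped between the times. F33H12.7, with no role given here, also rose, with 24.4 to 43.4 CPM at 12 h against 2.76 to 7.87 CPM at 0 h.

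None of 79 cytosolic ribosomal protein genes tested was called, and their median log2 fold change was -0.08. This median turned on single libraries, with 0.59 without Pol I-AID 0 h replicate 3 (1 gene called higher) and -0.40 without 12 h replicate 4, and 0.72 and -0.55 without replicates 3 and 4 of all groups, so it gives no direction for the list. Likewise none of 45 mitochondrial ribosomal protein genes was called (median 0.17), and of 27 translation factor genes 1 was. That gene was eif-6, which keeps the large ribosomal subunit from joining too early, with 4.82 CPM at 12 h and 1.12 CPM at 0 h on average. Among 36 ribosome biogenesis and nucleolar genes tested, 3 rose and none fell (8.33% of the list, near the 8.13% of all genes), with a median of 0.41 and 29 of the 36 above 0. The nucleolar GTPase gene nog-1, needed for the large subunit, had 24.8, 19, 18.4 and 14.0 CPM at 12 h, against 3.79, 5.78, 5.21 and 4.43 CPM at 0 h (1.98 ± 0.22, edgeR FDR = 4.87e-07). Its groups did not overlap. The other members called were eif-6 and byn-1 (2.29 CPM at 12 h, 0.981 CPM at 0 h), and the call of byn-1 was lost without any of 5 single libraries.

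**Figure D2:**
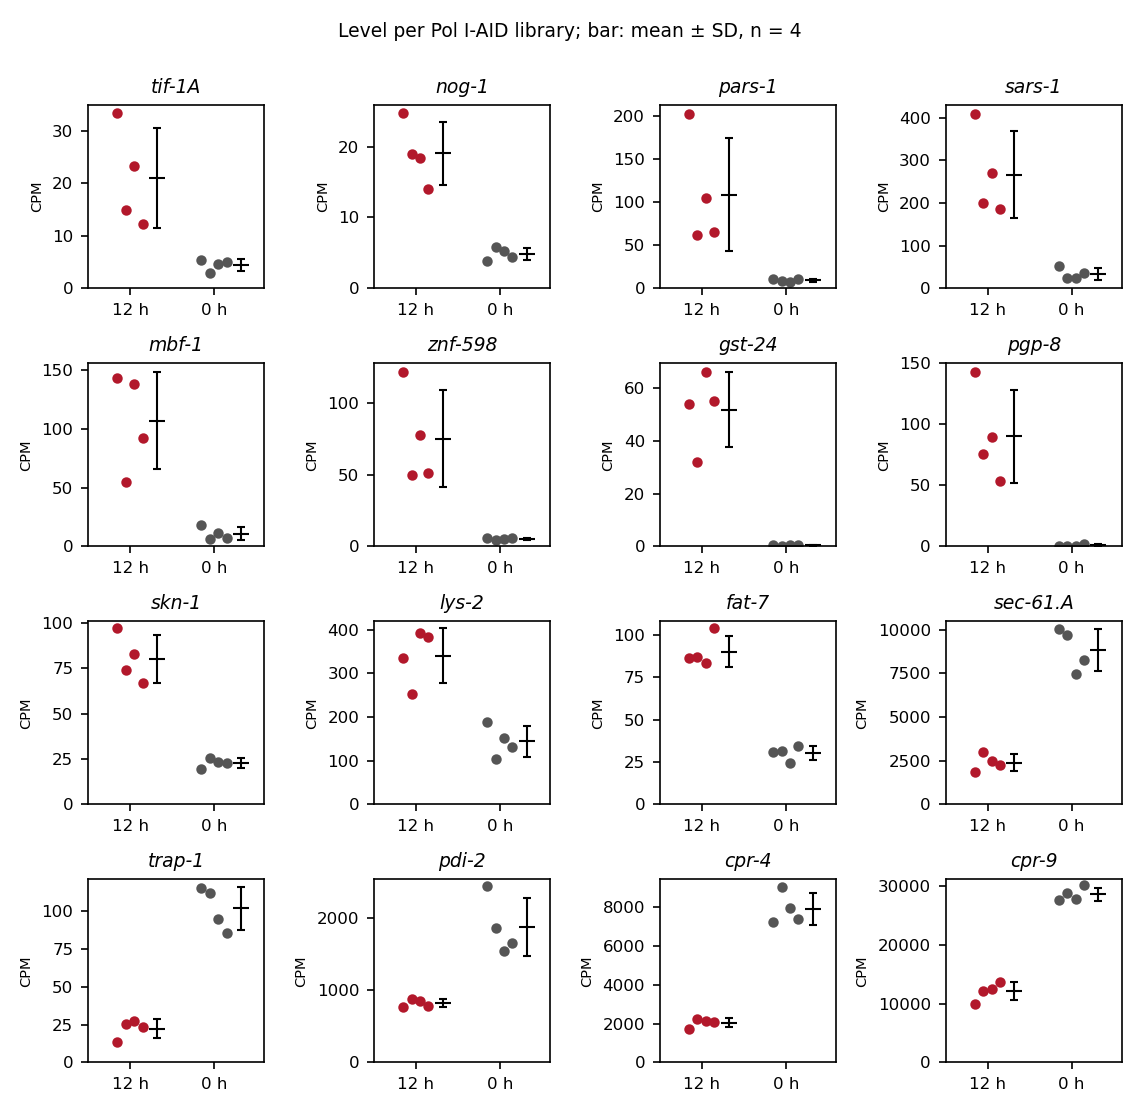
CPM in each of the 4 libraries at 12 h (red, left) and at 0 h (grey, right) for 16 named genes, with the mean ± SD beside them. In all 16 panels the 2 groups are apart, with pars-1 and znf-598 highest in replicate 1 at 12 h and sec-61.A, trap-1, pdi-2, cpr-4 and cpr-9 lower in every 12 h library.

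Detoxification genes were among the rises. Over all genes tested 8.13% were called, 5.71% as higher and 2.42% as lower. Of 45 UDP-glucuronosyltransferase genes tested, which conjugate lipophilic compounds to sugars, 18 rose and 1 fell (42.2% called, median log2 fold change 0.75). Of 24 glutathione S-transferase genes 7 rose and none fell (29.2%, median 0.88), and of 10 P-glycoprotein genes 5 rose and 1 fell (60%, median 1.10). The 7 rises and 1 fall among 51 cytochrome P450 genes (15.7%, median 0.38) and the 5 rises among 23 short-chain dehydrogenases (21.7%, median -0.04) were smaller in share. Many members also rose in TIR1 over the same 12 h. There 9 UDP-glucuronosyltransferases, 8 glutathione S-transferases, 1 P-glycoprotein, 8 cytochrome P450s and 4 short-chain dehydrogenases were called higher, and none lower. In the P-glycoprotein list, pgp-6 rose by 3.87, pgp-1 by 2.49, pgp-5 by 2.42 and pgp-3 by 1.79, while pgp-4 was at 0 in every 12 h library, at least 2.30-fold lower against a floor of 3 counts per library. The P-glycoprotein list had no fall when any 12 h library or 0 h replicate 4 was left out, or when the compared groups were fitted alone, and the fall among the P450 genes was lost without 12 h replicate 2 or 0 h replicate 4.

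The glutathione S-transferase gst-4 had 55.5, 63.7, 85.7 and 88.8 CPM at 12 h, against 9.82, 5.92, 20.6 and 8.64 CPM at 0 h. The UDP-glucuronosyltransferase ugt-26 had 722, 415, 474 and 445 CPM at 12 h, against 122, 109, 107 and 99.3 CPM at 0 h. Neither overlapped, with log2 fold changes of 2.70 ± 0.41 for gst-4 (edgeR FDR = 3.06e-05) and 2.23 ± 0.29 for ugt-26 (FDR = 4.60e-06). Within the same lists gst-5 rose by 3.80, gst-10 by 2.47, ugt-29 by 2.52, ugt-6 by 1.96, cyp-35C1 by 1.78, cyp-35A5 by 1.37, dhs-2 by 1.80 and dhs-22 by 1.25. The transcription factor gene skn-1, a regulator of detoxification genes, rose from the list of intestinal and stress factors, with 96.9, 73.8, 82.7 and 66.6 CPM at 12 h, against 19.5, 25.6, 23.3 and 22.7 CPM at 0 h (1.81 ± 0.24, FDR = 4.60e-06). In TIR1 skn-1 was called higher too (1.16 ± 0.24, edgeR FDR = 0.00404). Back in Pol I-AID, none of 19 antioxidant enzyme genes was called (median -0.09). In the list of metal and heme genes 4 of 27 rose and 1 fell (18.5% called, against 8.13% of all genes tested). The rises included the ferritin gene ftn-1 (27.6 CPM at 12 h, 10.4 CPM at 0 h) and the zinc transporter gene ttm-1 (17.3 CPM at 12 h, 7.28 CPM at 0 h).

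Immune and stress genes moved in both directions. Of 22 tested genes in the list of DAF-16-regulated and immune genes 10 rose and 1 fell (50% called, against 8.13% of all genes tested). The list median log2 fold change was 1.12. The median depended on the count filter, with -0.09 over the 14 genes that had at least 10 counts in every library, of which 5 rose and 1 fell, and 0.00 over 42 genes with no filter, of which 11 rose and 1 fell. The infection response gene irg-4 had 70.5, 47.8, 44.9 and 42.7 CPM at 12 h, against 8.90, 6.37, 7.81 and 7.64 CPM at 0 h (2.74 ± 0.40, edgeR FDR = 1.75e-05), and irg-2 had 194, 104, 149 and 108 CPM, against 43.4, 28.3, 31.8 and 23.3 CPM (2.13 ± 0.33, FDR = 4.45e-05). Neither gene overlapped between the times, nor did dod-19, which averaged 865 ± 109 CPM at 12 h and 259.7 ± 55.9 CPM at 0 h (SD, n = 4 each). The call of sysm-1 (24.5 CPM at 12 h, 4.01 CPM at 0 h) was lost without Pol I-AID 12 h replicate 4, and that of dod-3, the member called lower, in 13 other settings. Of 46 intestinal and stress transcription factors 6 rose and 1 fell (15.2%), the fall being lost without any of 6 single libraries. Besides skn-1 these included the bZIP gene zip-10, with 40, 30.6, 46.8 and 41.6 CPM at 12 h, against 10.7, 5.78, 13.8 and 5.65 CPM at 0 h (2.14 ± 0.45, FDR = 0.00137), the bHLH gene mxl-3 (1.48 ± 0.26) and atf-7, a bZIP regulator of immune genes (1.08 ± 0.16), whose call was lost without replicate 1.

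Among 13 lysozyme genes tested 2 rose and 3 fell (38.5% called, against 8.13% of all genes tested). lys-2 had 335, 253, 392 and 383 CPM at 12 h, against 189, 105, 151 and 132 CPM at 0 h (log2 fold change 1.24 ± 0.20, edgeR FDR = 5.78e-05). lys-4 had 962, 1132, 1989 and 2548 CPM at 12 h, against 3412, 3392, 7229 and 3268 CPM at 0 h (-1.38 ± 0.36, FDR = 0.00918). The groups of both genes were apart, but lys-4, lys-5 (-1.83) and lys-6 (-1.48) all had their highest 0 h value in replicate 3, and without that library the calls of lys-4 and lys-6 were lost and 1 lysozyme was called lower. Without 0 h replicate 2 or 4, 1 was called higher. The saposin-like gene spp-2, likewise highest in 0 h replicate 3 (148 CPM, against 28 to 39.6 CPM in the other 0 h libraries), lost its call without that replicate and without 3 single 12 h libraries, and spp-17 (27.7 CPM at 12 h, 8.21 CPM at 0 h) lost its call without any of 3 libraries. C-type lectins were divided, with 8 of 67 higher and 12 lower (29.9% called), and 8 lower without Pol I-AID 0 h replicate 4. clec-50 averaged 1221 CPM at 12 h and 242 CPM at 0 h and clec-49 101 CPM and 23.3 CPM in the same order, while clec-7 fell by 2.21 and clec-218 by 1.18 on the log2 scale. Of 49 fbxa F-box genes 11 rose and none fell (22.4%, median 0.59), each of the 11 at a mean under 10 CPM over the 8 libraries. Without replicate 1 or replicate 2 of all groups, 7 fbxa genes rose.

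Some genes of the secretory pathway fell. In the list of ER folding and export 7 of 37 tested genes fell, none rose and 30 were not called (18.9% called). That share stood against 8.13% of all genes tested. The list median log2 fold change was -0.67, with 29 of the 37 below 0. sec-61.A, the channel through which proteins enter the ER, had 1857, 2968, 2479 and 2262 CPM at 12 h, against 10010.3, 9692, 7453 and 8238 CPM at 0 h. trap-1, a translocon-associated protein gene outside that list, had 13.2, 25.1, 27.3 and 23.2 CPM at 12 h, against 115, 112, 94.6 and 85.6 CPM at 0 h. Both dropped well below their 0 h range in each library, with log2 fold changes of -1.89 ± 0.15 for sec-61.A (edgeR FDR = 7.05e-09) and -2.20 ± 0.20 for trap-1 (FDR = 4.55e-08).

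The protein disulfide isomerase pdi-2 had 763, 879, 846 and 779.5 CPM at 12 h, against 2449, 1860.3, 1547 and 1659 CPM at 0 h (log2 fold change -1.20 ± 0.12, edgeR FDR = 1.34e-07). The BiP homologues hsp-3 and hsp-4, the main ER chaperones of the HSP70 family and targets of the unfolded protein response, fell too. hsp-3 averaged 58.6 ± 9.27 CPM at 12 h and 131 ± 22.7 CPM at 0 h, and hsp-4 had 8.19, 10.6, 7.15 and 5.62 CPM at 12 h, against 35, 31.7, 14.7 and 12.3 CPM at 0 h (-1.57 ± 0.34, FDR = 0.00168). pek-1, the homologue of the ER stress kinase PERK, fell by 1.27 ± 0.21 on the log2 scale, a call lost without replicate 2. The remaining 2 members called were pdi-1 (-1.02), which lost its call in 9 other settings, and ckb-2 (-2.60), a choline kinase gene that the list also holds.

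So did some genes of proteases that leave the cell or work in the lysosome. Of 21 aspartic and cysteine protease genes tested 7 fell, none rose and 14 were not called (33.3% called, against 8.13% of all genes tested). The list median was -0.67, and 7 of the 21 had a positive log2 fold change. The cathepsin B-like gene cpr-4 had 1738, 2262, 2159 and 2065 CPM at 12 h, against 7254, 9069, 7964 and 7413 CPM at 0 h, and cpr-1 had 1772, 1797, 1914 and 1757 CPM, against 6025, 6698, 5758 and 5169 CPM. cpr-9 had 10019.9, 12249, 12476 and 13709 CPM at 12 h, against 27711, 28829, 27939 and 30186 CPM at 0 h. These genes, with cpr-5 (8194 CPM at 12 h, 21475 CPM at 0 h), were among the called genes of the highest CPM, and none of the 4 overlapped between the times. The log2 fold changes were -1.95 ± 0.19 for cpr-4, -1.71 ± 0.16 for cpr-1, -1.39 ± 0.12 for cpr-5 and -1.24 ± 0.11 for cpr-9 (edgeR FDR 7.42e-08, 6.74e-08, 1.65e-08 and 2.42e-08 in that order). The aspartic protease genes asp-6 and asp-1 fell by 1.19 and 1.15, on the log2 scale. asp-8 had a log2 fold change of -1.94, a call lost without any of 4 single libraries, Pol I-AID 0 h replicate 4 among them.

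The vacuolar ATPase acidifies lysosomes. Of 18 subunit genes tested 17 had a log2 fold change below 0, with a median of -0.87, and 2 passed the 2-fold threshold (11.1% called, against 8.13% of all genes tested). vha-13 had 93.6, 107, 104 and 94.1 CPM at 12 h, against 214, 252, 189 and 220.1 CPM at 0 h (-1.13 ± 0.11, edgeR FDR = 6.74e-08). vha-1 fell by 1.09 ± 0.24, and its call was lost without Pol I-AID 12 h replicate 1 or 0 h replicate 3. The count called was 5 without 12 h replicate 2, 12 h replicate 3 or 0 h replicate 3, 4 without 0 h replicate 4 and 1 without 12 h replicate 1, and by FDR alone 13 of the 18 were lower. The 61 respiratory chain and ATP synthase genes had a median of -0.33 (-0.02 without 0 h replicate 3), with 48 below 0. By FDR alone 10 of the 61 were lower and 1 was higher. At 2-fold 1 was called higher, a call lost without any of 4 single libraries, and none lower. The 33 proteasome genes had a median of -0.06 with none called, and the 10 mitochondrial chaperone genes a median of 0.02 with none called.

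Some transport and lipid genes changed as well. The phosphate transporter gene pitr-5 had 9.20, 18.4, 7.26 and 8.69 CPM at 12 h, against 73.4, 33.9, 41.6 and 58.4 CPM at 0 h (log2 fold change -2.25 ± 0.32, edgeR FDR = 1.38e-05). The peptide transporter gene pept-1 averaged 267 ± 19.3 CPM at 12 h and 553 ± 48.8 CPM at 0 h (-1.05 ± 0.13, FDR = 2.54e-06), and its call was lost with library totals alone as scaling. Of the 40 tested genes in that transporter list 5 fell and 1 rose. The microvillar actin gene act-5, an intestine marker, fell by 1.17 ± 0.13 on the log2 scale, and of the 18 intestine markers tested 6 fell and 1 rose (38.9% called).

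In fatty acid synthesis and desaturation 4 of 19 genes rose and none fell (21.1% called, against 8.13% of all genes tested). The list median log2 fold change was 0.29. The stearoyl-CoA desaturase gene fat-7 had 86.3, 86.7, 83.5 and 104 CPM at 12 h, against 30.9, 31.5, 24.4 and 34.4 CPM at 0 h (1.58 ± 0.16, edgeR FDR = 1.04e-07), and the oleate desaturase gene fat-2 had 456, 424, 443 and 458 CPM, against 176, 184, 209 and 201 CPM (1.21 ± 0.12, FDR = 8.04e-08). The libraries of the 2 times did not overlap. fat-5 rose by 1.46 and acly-1, which encodes ATP-citrate lyase, by 1.37. The lysosomal lipase gene lipl-5 averaged 1738 CPM at 12 h and 311 CPM at 0 h (2.48 ± 0.43), and 3 of 8 lipase genes rose while 1 fell. Without 0 h replicate 1 the count of lipase rises was 1, and the fall was lost without 12 h replicate 2 or 4 or without 0 h replicate 2 or 4. In fatty acid oxidation 4 of 51 genes rose (7.84%, near the 8.13% of all genes called), ech-7 among them (1.19). In TIR1 8 of the 51 rose. The cystathionine gamma-lyase gene cth-1 had 302, 293, 272 and 311 CPM at 12 h, against 40.1, 27.5, 22.7 and 25.1 CPM at 0 h (3.35 ± 0.49, FDR = 1.75e-05). In Pol I-AID, carbohydrate metabolism had 1 of 51 genes called (1.96%), and the list of mTOR, AMPK and insulin signalling 1 of 39 (2.56%). Both shares were below the 8.13% of all genes.

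The yolk genes themselves did not pass the test. None of the 6 vitellogenin genes was called, with a median log2 fold change of -0.00 after trimmed-mean scaling. Their share of all counts was 75.7 ± 1.43% at 12 h and 71.3 ± 1.49% at 0 h (SD, n = 4 each), higher by 4.36 percentage points, and all 4 libraries at 12 h lay above all 4 at 0 h. A two-sided exact permutation test gave p = 0.0286, the smallest that 4 against 4 can give. In TIR1 intestine the share was 72.4 ± 3.82% at 12 h and 68.4 ± 0.850% at 0 h (exact permutation p = 0.114). The total count per library averaged 21.6 ± 3.78 M at 12 h and 23.1 ± 4.63 M at 0 h (exact permutation p = 0.600).

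**Figure D3:**
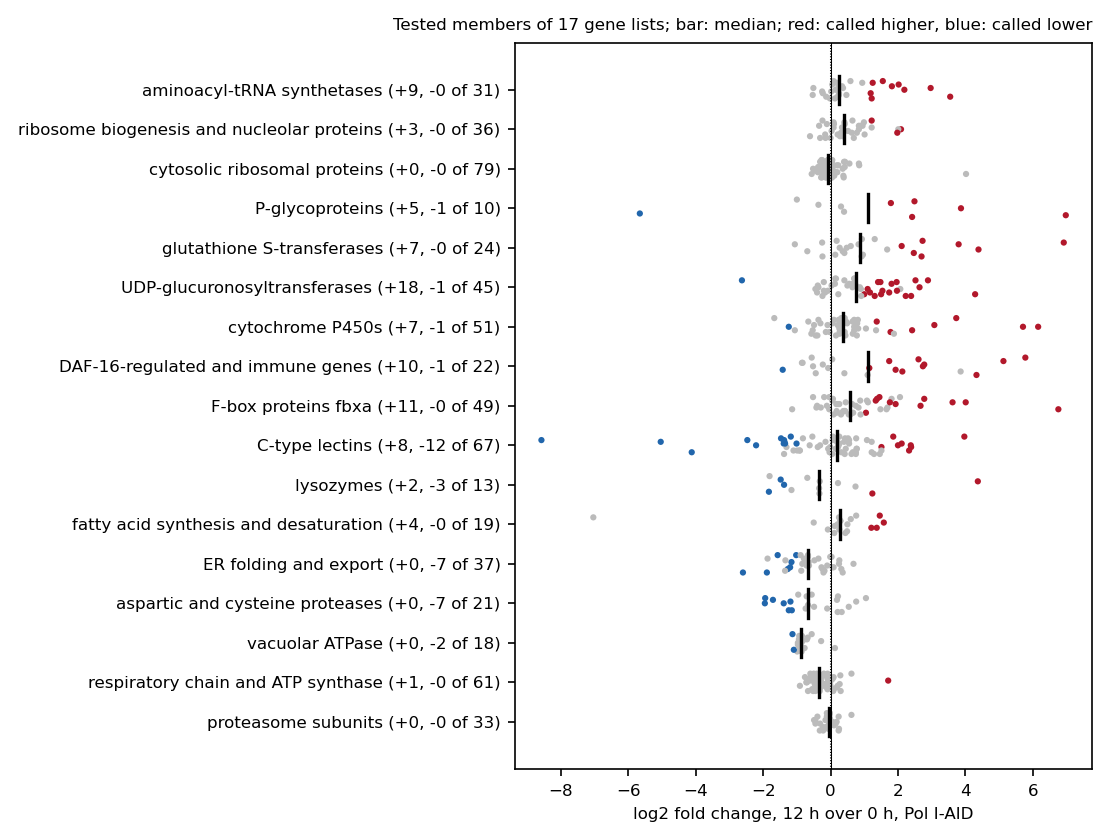
Log2 fold change (12 h over 0 h, Pol I-AID) of each tested member of 17 gene lists, with the number called higher (+) and lower (-) beside each name, red and blue for called genes and a bar at the list median. Synthetases, conjugating enzymes and transporters extend to the right, while the ER, protease and vacuolar ATPase lists have medians of -0.67, -0.67 and -0.87.

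The largest falls by fold rested largely on 1 library. Of the 29 genes called lower by at least 8-fold, 22 were over 3 times higher in Pol I-AID 0 h replicate 4 than in each other 0 h library, and 23 lost their call without it. The eggshell gene perm-4 had 0.0840, 0.385, 0.320 and 0.438 CPM at 12 h, against 1.78, 0.448, 0.797 and 103 CPM at 0 h (log2 fold change -6.40 ± 1.71, edgeR FDR = 0.0103), and clec-87 had 1.12 CPM on average at 12 h, against 1.61, 2.33, 3.55 and 71.5 CPM at 0 h. Of the 14 germline and oocyte markers tested 7 were called lower. These were the eggshell genes perm-4, cbd-1, cpg-1, cpg-2 and cpg-3, the chitin synthase gene chs-1 and the oocyte yolk receptor gene rme-2, and all 7 were highest in that library among the 0 h libraries. Without it 1 of the 14, cbd-1, was called lower.

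**Figure D4:**
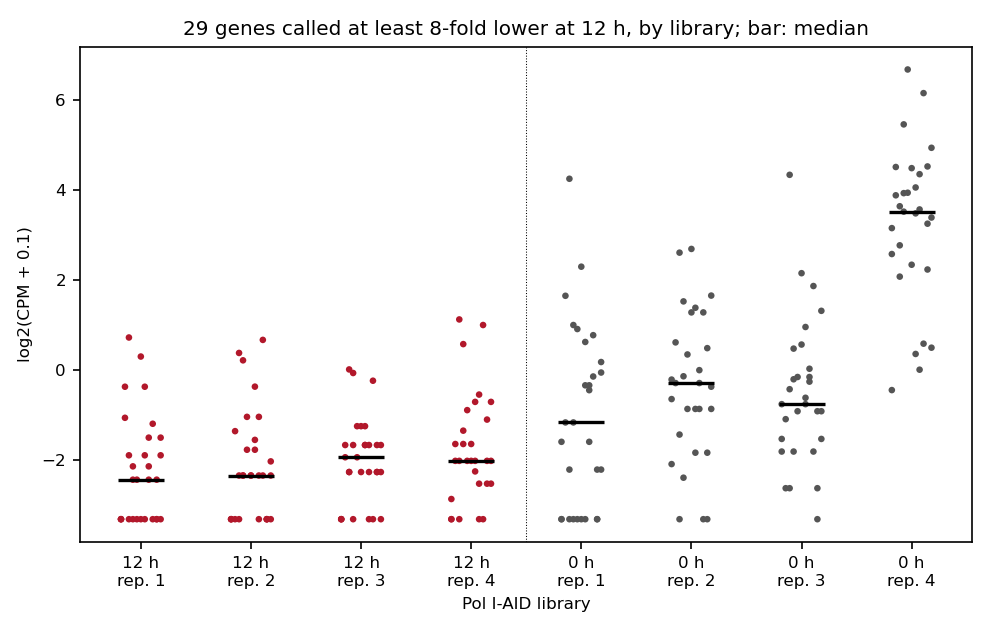
Log2(CPM + 0.1) in each Pol I-AID library, 12 h in red and 0 h in grey, for the 29 genes called at least 8-fold lower at 12 h, 1 point per gene and a bar at the median. The points of 0 h replicate 4 lie above those of the other 0 h libraries for 22 of the 29 genes by over 3-fold.

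Of the other largest falls of genes averaging at least 10 CPM, those of ugt-15, Y39B6A.1 and F09C8.1 were also called without that library. ugt-15, a UDP-glucuronosyltransferase gene, had 4.03, 2.40, 2.94 and 2.37 CPM at 12 h, against 20.7, 16, 17.1 and 18.9 CPM at 0 h (log2 fold change -2.63 ± 0.52, edgeR FDR = 0.000653). Y39B6A.1 had 184, 269, 284 and 239 CPM at 12 h, against 719, 1495, 903 and 849 CPM at 0 h (-2.02 ± 0.29, FDR = 1.19e-05). Neither overlapped. F09C8.1 (4.52 CPM at 12 h, 16.4 CPM at 0 h) and B0035.13 (4.52 CPM at 12 h, 16.4 CPM at 0 h) also fell, but the call of B0035.13 was lost without any of 5 single libraries, 0 h replicate 4 among them. Single genes of other lists that rose were nhr-58, a nuclear hormone receptor gene (2.03 ± 0.31), lem-3, a LEM-domain nuclease gene (1.61 ± 0.44), which lost its call without Pol I-AID 12 h replicate 2 or 0 h replicate 4, and pals-24 (1.29 ± 0.27). The 16 tested genes of the pals list had 2 called higher (12.5%, against 8.13% of all genes tested called), and 1 without any of 5 single libraries.

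In TIR1 intestine, which shares no library with the Pol I-AID comparison, 143 genes rose and 35 fell over the same 12 h (2.58% of the genes tested). Of the 35 falls 14 were markers of other tissues, 11 of hypodermis and cuticle and 3 of body wall muscle, and none of the 14 was called in Pol I-AID. Hypodermal and cuticle markers held 47.7 to 109 ppm in TIR1 at 12 h, against 2661, 135, 100.1 and 1103 ppm in TIR1 0 h replicates 1 to 4, and muscle markers 92.5 to 118 ppm, against 1149.7, 106, 130.2 and 135 ppm. TIR1 0 h replicate 1 was the highest for both, and without it 145 genes rose and 18 fell. The counts in TIR1 were not stable under other settings. They were 244 and 114 without TIR1 12 h replicate 4, 121 and 39 without TIR1 0 h replicate 3, the shallowest library with 3.18 M counts, and 0 and 0 by edgeR when the 8 TIR1 libraries were fitted alone, where 805 genes had an unadjusted p under 0.05. In Pol I-AID 97 genes rose that also rose in TIR1, which is 24.6% of the Pol I-AID rises and 67.8% of the TIR1 rises. For falls there were 8 such genes, 4.79% and 22.9% in the same order. No gene was called in opposite directions. Among the genes called in Pol I-AID, 82.7% of those higher had a positive log2 fold change in TIR1, against 51.1% of all genes tested, and 93.4% of those lower had a negative one, with TIR1 medians of 0.64 and -0.62.

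Several genes, most of them of detoxification, were called higher in both strains. The log2 fold changes in Pol I-AID and TIR1 were 9.76 and 8.82 for fmo-2, 4.88 and 4.27 for drd-50, 3.80 and 3.23 for gst-5, 2.70 and 2.11 for gst-4, 2.49 and 1.95 for pgp-1, 1.78 and 1.64 for cyp-35C1 and 1.80 and 1.83 for dhs-2. cth-1 gave 3.35 and 3.92, clec-50 2.33 and 2.05 and lipl-5 2.48 and 1.67. The TIR1 12 h libraries were uneven for these genes. In TIR1, cth-1 had 28.8 to 623 CPM at 12 h, against 17.9 to 37.1 CPM at 0 h. For clec-50 the TIR1 ranges were 187 to 1364 CPM and 149 to 376 CPM. The lowest TIR1 12 h level also lay within the TIR1 0 h range for lipl-5, gst-4, pgp-1, cyp-35C1 and dhs-2. It lay above that range for fmo-2, drd-50 and gst-5. The difference between strains was not called for any of these 10 genes. Its SE ran from 0.36 (dhs-2) to 2.15 (fmo-2), so equal changes are not shown. Other genes called higher in both strains included skn-1 (1.81 and 1.16), irg-4 (2.74 and 1.63), gst-24 (6.92 and 3.27) and gst-10 (2.47 and 1.74). The same held for ugt-6 (1.96 and 1.57), cyp-35A5 (1.37 and 1.59), clec-49 (2.11 and 1.86) and nhr-58 (2.03 and 1.14). Y39B6A.1 was called lower in both (-2.02 and -1.15). For these the difference between strains was not called either. Over whole lists, it was called for no glutathione S-transferase and no short-chain dehydrogenase. It was called for 4 UDP-glucuronosyltransferases and 1 P-glycoprotein, all with a higher change in Pol I-AID. Among cytochrome P450s, 1 had a higher and 2 a lower change.

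The strain by time contrast, the Pol I-AID change minus the TIR1 change, was called for 143 genes (2.07% of those tested), 115 with a higher and 28 with a lower change in Pol I-AID. Of these, 104 were among the genes called higher in Pol I-AID and 21 among those called lower. The contrast includes the Pol I-AID change itself, so the 2 sets of calls are not independent. With library totals alone as scaling the split was 175 and 7, and the median over all genes moved to 0.16, against -0.05 with trimmed-mean scaling. Leaving out replicate 3 of all groups left 32 and 5. Among called genes averaging at least 10 CPM over the 16 libraries, the largest positive differences were 5.95 ± 0.70 for F08G2.5, which averaged 65.3 CPM at 12 h and 0.912 CPM at 0 h in Pol I-AID, and 2.76 CPM at 12 h and 2.15 CPM at 0 h in TIR1. F35D11.4 followed with 4.71 ± 0.57, znf-598 with 2.94 ± 0.55 and F33H12.7 with 2.93 ± 0.60, then mbf-1 with 2.91 ± 0.69 (edgeR FDR = 0.0174), a call lost in 5 settings, among them without TIR1 0 h replicate 1 and with the compared groups alone. F35E12.9, under 10 CPM over those libraries, differed by 3.69 ± 0.91, a call lost in 6 settings.

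Of the aminoacyl-tRNA synthetases 10 of 31 were called in this contrast, all with a higher change in Pol I-AID. The count was 6 to 10 when any single library was left out, lowest without Pol I-AID 12 h replicate 1 or TIR1 0 h replicate 1, and 3 without replicate 3 of all groups. pars-1 differed by 2.48 ± 0.55, sars-1 by 2.40 ± 0.53, nars-1 by 2.20 ± 0.36 and iars-1 by 2.63 ± 0.43 on the log2 scale, and iars-1 averaged 117 CPM at 12 h and 203 CPM at 0 h in TIR1. Among called genes averaging at least 10 CPM over the 16 libraries, the largest negative differences were those of trap-1 (-1.72 ± 0.27), pitr-5 (-1.67 ± 0.44), sec-61.A (-1.38 ± 0.20), clec-218 (-1.34 ± 0.25) and cpr-1 (-1.27 ± 0.22). sec-61.A averaged 5049 CPM at 12 h and 7203 CPM at 0 h in TIR1 (log2 fold change -0.51), against 2391 CPM and 8848 CPM in Pol I-AID. The call of pitr-5 was lost in 12 settings, 8 of which left out a single library. Below 10 CPM, ckb-2 differed by -2.24 ± 0.52, a call lost without Pol I-AID 0 h replicate 1. Among the named genes, the contrasts of nars-1, iars-1, tars-1, nog-1, fat-7, trap-1, sec-61.A, cpr-1, F08G2.5, F33H12.7 and F35D11.4 were called in every setting run in which the gene was tested. pgp-8 and gst-24 had large but uncertain differences, 5.55 ± 1.82 (edgeR FDR = 0.122) and 3.65 ± 1.34 (FDR = 0.191).

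**Figure D5:**
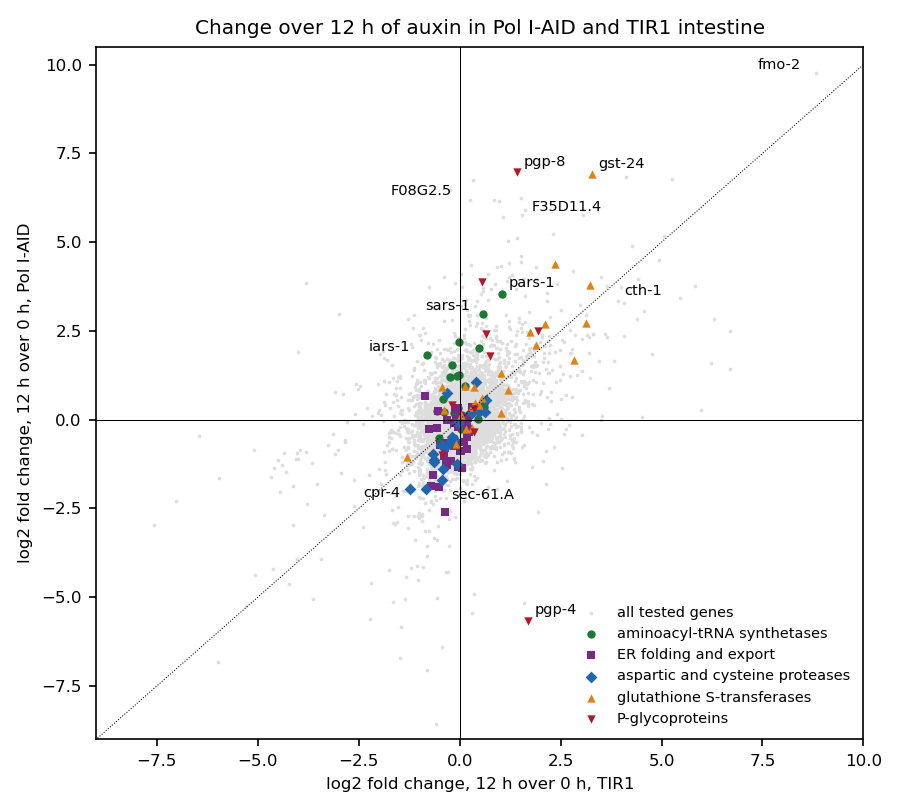
Log2 fold change over 12 h of auxin in Pol I-AID (vertical) against TIR1 (horizontal) for 6903 genes in grey, with 5 gene lists in colour and a dotted line of equal change. Synthetases such as pars-1 and sars-1 lie above the line with TIR1 changes of 1.06 and 0.58, while fmo-2 and cth-1 lie close to it.

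The 24 h libraries of Pol I-AID, set against the same 0 h libraries, give each gene's level one step later. Of the 394 genes called higher at 12 h, 324 had a higher mean at 24 h than at 12 h, and of the 167 called lower, 88 had a lower mean at 24 h. gst-24 averaged 0.424, 51.9 and 273 CPM at 0, 12 and 24 h, and pgp-8 0.728, 90.5 and 352 CPM. sec-61.A averaged 8848, 2391 and 1096 CPM in the same order, whereas cpr-4 had 7925, 2056 and 3846 CPM and fat-7 30.3, 90.2 and 38.0 CPM. These comparisons share the 0 h libraries, so they are not independent.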

How the data were processed

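Intestines were dissected from Pol I-AID and TIR1 animals, pooled per library, and sequenced as polyadenylated RNA. The deposited values are raw counts per gene, which the authors made from reads trimmed, aligned to the ce10 genome and counted over annotated exons, keeping uniquely mapped reads. Most low values are even (72.3 to 74.5% of counts from 1 to 10 at 12 h, 70.2 to 74.3% at 0 h), a pattern that counting both mates of a read pair would give, though the sources used here do not say how mates were counted. The library kit does not mark strand, so antisense and overlapping genes cannot be told apart, and members of near-identical families (cpr, ugt, gst, pgp, clec, fbxa) are uncertain.

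Counts were scaled by trimmed means and fitted in edgeR 4.0.16 (R 4.3.3, limma 3.58.1) with 1 mean for each of 6 groups over all 24 libraries. The quasi-likelihood test was adjusted by Benjamini-Hochberg over the 6903 of 20392 genes that passed filterByExpr, and a gene was called at FDR under 0.05 and at least 2-fold. A gene at 0 in a group was set against a floor of 3 counts per library. Intervals and floors cover counting error only. The procedure was tested on simulated data for the Pol I-AID comparison with 6715 genes, 50 changed at each fold: 41 were called at 0.25-fold, 24 at 0.4-fold, 37 at 2.5-fold and 43 at 4-fold, with 8 false calls. The simulated counts came from the fitted model and held no outlying library or strain difference, so the false calls cover neither. Alternatives were other scalings, DESeq2 1.42.0, other filters, the compared groups alone, a replicate block, removal of an exon length trend, FDR alone and leaving out each replicate or library.

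The members and gene lists were chosen with earlier results of these data known. Genes named were rpoa-2, the 12 largest rises and 12 largest falls among called genes averaging at least 10 CPM over the 8 libraries with the same direction in all 4 same-numbered pairs, the 5 called genes of highest CPM in each direction, up to 4 called members of each list at 10 CPM or more, and the 5 largest strain by time differences in each direction. A further 21 called list members outside this rule, and pgp-4, were named after their values were seen. Values are from 4 libraries per group. The edgeR p-values and SEs rest on a spread between libraries that was estimated over all 24 libraries (18 residual degrees of freedom). The exact permutation p-values use the compared libraries alone. Promoter motifs, coordinates and sequences were not analysed here.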

Additional observations from a re-analysis of the deposited data

Results flagged for a closer look

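The named genes were partly chosen by their values in these libraries, so their share of outlying libraries has no chance rate to be set against. Within groups of 4 libraries, 18 of 210 group values of named genes (8.57%) held a library far from the other libraries of its group. Many were 0 h replicate 4, with perm-4 at 103 CPM, clec-87 at 71.5, rme-2 at 44.1, cpg-3 at 30.7, chs-1 at 22.8, cbd-1 at 22.4, cpg-1 at 11.8 and cpg-2 at 11.4 CPM. The same library held 1205 ppm of germline and oocyte markers and 241 of body wall muscle markers, outside the vitellogenins. 0 h replicate 3 was far above the other 0 h libraries for the lysozymes lys-4 (7229 CPM), lys-6 (109 CPM) and lys-5 (27.4 CPM) and for spp-2 (148 CPM), and it was the 1 library at 0 h with fmo-2 counts (0.0613 CPM). At 12 h, replicate 2 stood apart for cpr-5 (7317 CPM, the lowest) and cyp-35C1 (217 CPM, the highest), replicate 1 for dhs-2 (17.6 CPM, the lowest), replicate 4 for fat-7 (104 CPM) and cpg-3 (0.511 CPM), and replicate 3 for the muscle markers (121 ppm).

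For 32 named genes the change over 12 h differed between Pol I-AID and TIR1 by the strain by time test of edgeR, 8 of them with a lower change in Pol I-AID. The log2 differences were 5.95 for F08G2.5, 4.71 for F35D11.4, 3.69 for F35E12.9, 2.94 for znf-598, 2.93 for F33H12.7, 2.91 for mbf-1, 2.82 for zip-10 and 2.79 for grp-1. The synthetases gave 2.63 for iars-1, 2.48 for pars-1, 2.40 for sars-1, 2.20 for nars-1, 1.74 for tars-1, 1.54 for aars-2, 1.43 for lars-1, 1.29 for dars-1 and 1.26 for gars-1. The others with a higher change were nog-1 (2.04), irg-2 (1.97), ugt-29 (1.69), lys-2 (1.49), ftn-1 (1.38), fat-7 (1.36) and pgp-3 (1.03). Those with a lower change were ckb-2 (-2.24), trap-1 (-1.72), pitr-5 (-1.67), sec-61.A (-1.38), clec-218 (-1.34), cpr-1 (-1.27), cpr-9 (-1.18) and cpr-4 (-1.11). These calls were not equally stable. Those of pgp-3 and gars-1 were each lost in 16 settings, aars-2 in 15, ftn-1 in 14, grp-1 in 13, pitr-5 in 12 and ugt-29 in 8. Each of the remaining calls was lost in at most 6 settings.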

How the results depend on the processing

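In Pol I-AID, 178 genes were called higher and 76 lower with at least 10 counts in every library, 264 were called lower with no count filter and 438 by FDR alone. Leaving out a replicate or library gave 311 to 395 higher and 125 to 172 lower. The replicate block gave 385 and 161, sharing 378 higher and 150 lower calls with the fit without it, and changed no count by over 1.5 times. Deviations of same-numbered libraries correlated at 0.16, 0.20, -0.04 and -0.15, so the numbers were not taken to pair the libraries; those of replicate 1 share strain DCW180 at both times, and replicates 2 to 4 all share DCW447. In TIR1 the calls were 93 higher with library totals alone (67.4% of calls higher, against 80.3%, and a median over all genes of -0.14), 89 lower with no filter, 56 and 14 with 10 counts in every library, 0 and 0 with the compared groups alone (805 genes at an unadjusted p under 0.05), and 247 and 74 by FDR alone. Leaving out a replicate or library gave 34 to 244 higher and 0 to 114 lower in TIR1, and any 12 h library or 0 h replicate 1 moved a count by over 1.5 times. For strain by time they were 175 and 7 with library totals alone (96.2% higher, against 80.4%, and a median of 0.16), 204 and 85 with no filter and 73 lower by FDR alone, and leaving out a replicate or library gave 32 to 127 and 5 to 39, with Pol I-AID 12 h replicate 1, Pol I-AID 0 h replicate 2 and TIR1 0 h replicate 1 each moving a count by over 1.5 times. The cause of these changes was not tested. The vitellogenin share differed by 3.99 to 4.73 points when a replicate was left out (exact permutation p = 0.1, the smallest 3 against 3 can give), and by 4.36 points with a sign-flip over the replicate block (exact p = 0.125). Total counts differed by -3.97 to 2.04 M when a replicate was left out, with the positive value without replicate 3 (exact permutation p = 0.4). Of 104 named genes called, 26 lost the call in some setting and 6 in a setting that leaves out no library, and none reversed. For named strain by time calls 820 of 956 comparisons kept the call.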
